A study of Mus musculus with 11 samples.

Results

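The genes described here are 35 genes of fatty acid oxidation and targets of PPARA, chosen by name from the 46603 genes of the liver count table, and all 35 passed the filter on low counts. They were followed in male *ob/ob* mice, which carry an inactivating mutation of the leptin gene in every group, controls included. The mice were 5 to 6 weeks old when they were put on the AMLN diet, which is rich in fat with trans-fat, fructose and cholesterol, for 15 weeks before treatment and throughout it. They entered the study only when a liver biopsy showed steatosis and fibrosis. INT-767 is a bile acid analog and agonist of both FXR and TGR5. It was given by oral gavage at 10 mg/kg once daily for 8 weeks to 4 mice, and 7 mice received the carboxymethyl cellulose vehicle alone. Each mouse gave 1 library from the terminal liver, and the mice are the replicates. No mouse on normal diet and no untreated lean mouse is in the comparison, so that the control is diseased liver.

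Fatty acids enter the hepatocyte, are bound by a carrier protein and are activated to acyl-CoA. The carnitine shuttle carries long chains into the mitochondrion, where the beta-oxidation spiral shortens them and hands electrons to the electron transfer flavoprotein. Peroxisomes shorten chains that mitochondria handle poorly, cytochrome P450 enzymes of the CYP4A family oxidize the far end of the chain, and thioesterases release the free acid again. PPARA is the nuclear receptor that binds fatty acids and drives many of these genes in fasting liver.

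The members did not move in one direction with INT-767. By edgeR's quasi-likelihood test, adjusted over 13880 tested genes with a threshold of 0.05, 1 member was higher (*Acot3*) and 3 were lower (*Acaa1b*, *Cyp4a12a* and *Cyp4a31*), while 31 were not called. Of all tested genes 5.04% were called higher and 4.68% lower, so that the share of members called (11.4%) was near the 9.72% called in either direction overall. The median log2 fold change of the members, INT-767 over vehicle, was -0.0072 against -0.0106 for all tested genes, with 17 members above 0 and 18 below, where 49.4% of tested genes were above 0. At an unadjusted *p* under 0.05, 3 members were higher and 5 lower, against 17.4% and 15.6% of tested genes. Only *Cyp4a31* had groups that did not overlap, all INT-767-treated mice lying below all vehicle mice, as in 3.65% of tested genes. No member had all treated mice above all vehicle mice, as 3.87% of tested genes did. The called members sat in 3 of 8 compartments: the peroxisomal, the thioesterase and the omega-oxidation group.

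**Figure D1:**
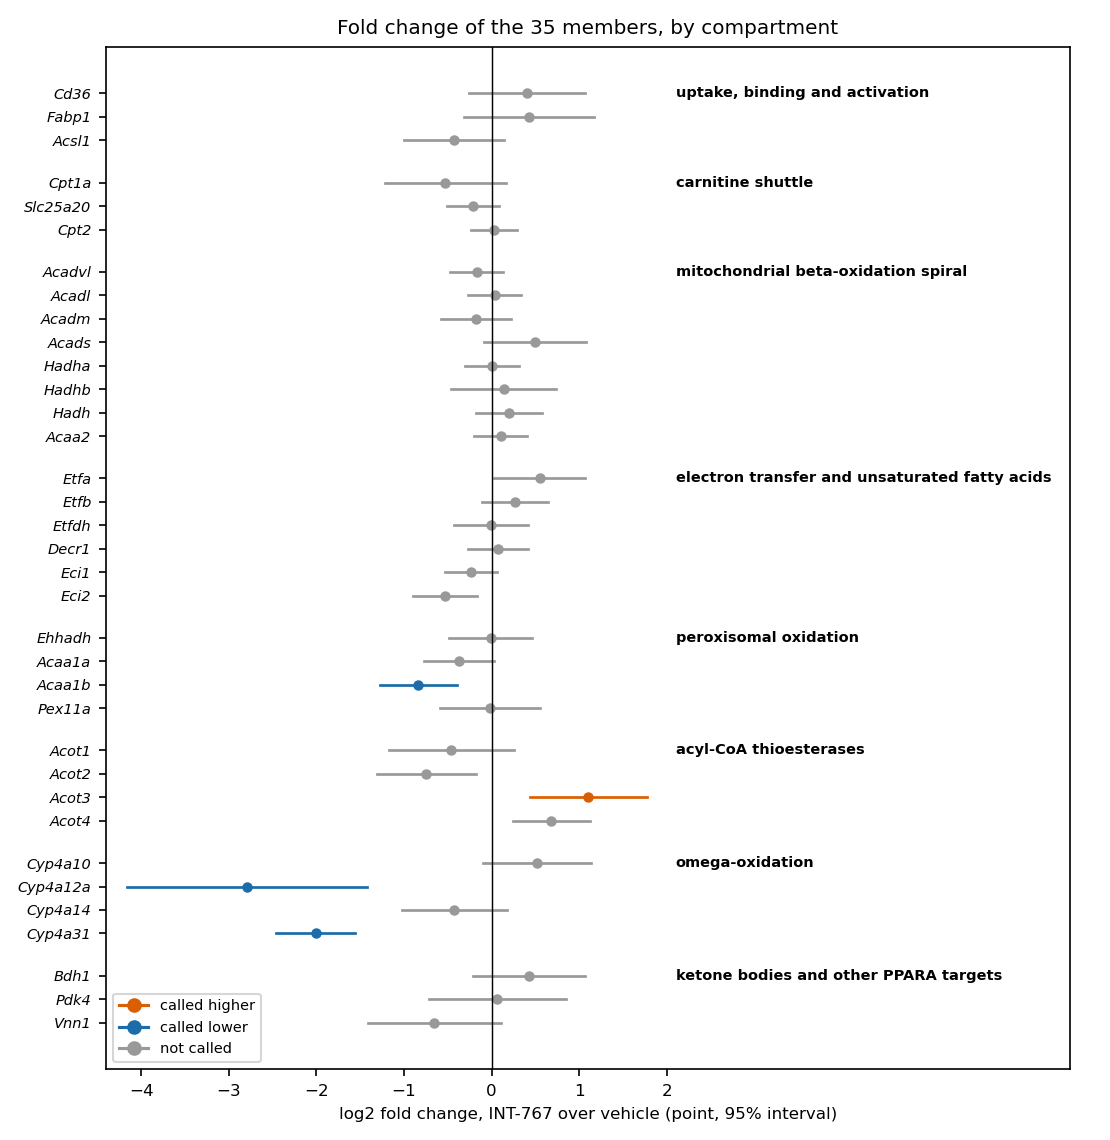
Log2 fold change of each of the 35 members, INT-767 (n = 4) over vehicle (n = 7), as a point with its 95% interval from edgeR, in 8 compartments from uptake to ketone bodies. The 8 genes of the mitochondrial spiral lie around 0, while *Cyp4a12a* and *Cyp4a31* lie far to the left and *Acot3* to the right.

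The precision differed between compartments. The 95% interval of the log2 fold change spanned 0 for 27 of the 35 members and lay wholly between -1 and 1 for 19, so that for these 19 a change of 2-fold or more lay outside the interval. The spread between mice was wider with INT-767, where the coefficient of variation had a median of 27.2% over the members against 18.1% with vehicle. In 29 of 35 members it was larger in the INT-767-treated group. Total counts were between 7966963 and 15295230 with vehicle and between 7381211 and 16022459 with INT-767, and the members together took at least 0.857% of each library.

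Some libraries stood apart. On the leading principal component of the 500 most variable genes, which held 65.1% of their variance, vehicle mice 1 (-14.5) and 7 (-10.2) lay on the side of the INT-767-treated mice (-38.0 to -6.10), and the other vehicle mice were between 11.3 and 29.6. The libraries also differed along transcript length and GC content. Across 13835 genes, Spearman's rho between a gene's level in a mouse, relative to its mean over all mice, and the length of its longest transcript was -0.183 in vehicle mouse 1, -0.233 in vehicle mouse 7, -0.299 in INT-767 mouse 2 and -0.317 in INT-767 mouse 4. It was between 0.0919 and 0.31 in the other mice. With GC content, rho was between -0.261 and -0.0615 in the 4 INT-767-treated mice, -0.424 and -0.124 in vehicle mice 1 and 7, and between 0.0151 and 0.443 in the other vehicle mice. The log2 fold change itself had a rho of -0.296 with GC content and -0.244 with length. These values are descriptions across genes, which are not independent replicates. Among the members themselves, rho with the length of the principal transcript was between -0.155 and 0.422 in single mice.

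In the members, INT-767 mouse 1 had the lowest level of all 11 mice for 19 members, and INT-767 mouse 4 the highest for 10 and the lowest for 5. Without vehicle mice 1 and 7, a comparison added after seeing the data, 3 members were called higher and 8 lower. The part of these libraries' differences in any single result was not tested, and where leaving out vehicle mice 1 and 7 changed the call of a member, its value without them is given below.

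**Figure D2:**
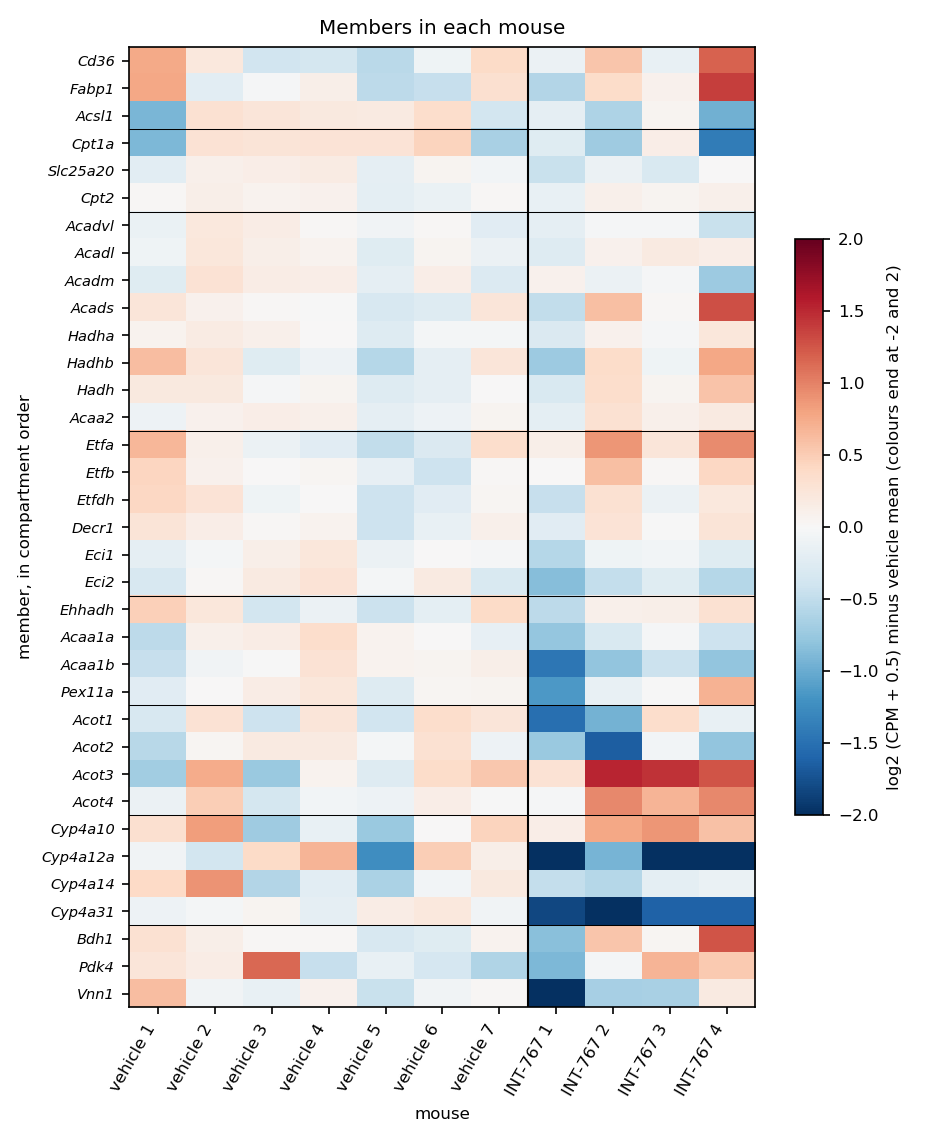
Level of each member in each mouse as log2(CPM + 0.5) minus the vehicle mean, in compartment order, with 7 vehicle and 4 INT-767-treated mice as columns and colours from -2 (blue) to 2 (red). The *Cyp4a31* row is blue in all 4 INT-767-treated mice. *Acot3* is reddest in INT-767 mice 2, 3 and 4, and paler red in INT-767 mouse 1 and in some vehicle mice, among them 2 and 7. *Cpt1a* and *Acsl1* are blue in vehicle mice 1 and 7 and in INT-767 mice 2 and 4, and faintly blue in INT-767 mouse 1.

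Uptake, binding and activation of fatty acids showed no called change in its 3 members. *Fabp1*, the fatty acid binding protein of the liver, was the most abundant member per length, at 4979 ± 1684 CPM per kb (SD, n = 7) in vehicle mice and 6709 ± 4029 (SD, n = 4) in treated mice. CPM are counts scaled by the TMM-adjusted size of each library. Its log2 fold change was 0.43 (95% interval -0.31 to 1.17, edgeR adjusted *p* = 0.377). Its highest level of all, 6889 CPM, was in INT-767 mouse 4, and without that mouse the log2 fold change was -0.06. *Cd36*, a fatty acid translocase of the plasma membrane, had a log2 fold change of 0.40 (edgeR adjusted *p* = 0.349), which was 0.05 without INT-767 mouse 4 and -0.05 after an offset for the trends of each library with GC content and transcript length. *Fabp1* was -0.02 with that offset, which was chosen after seeing the data.

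*Acsl1* (chr8:46471037-46536051, GRCm38) encodes the main long-chain acyl-CoA synthetase of liver. Vehicle mice had a lowest level of 312 CPM, a median of 670 and a highest of 747, and the INT-767-treated mice had 519, 380, 610 and 299 CPM. The groups overlapped: vehicle mice 1 and 7 lay at the level of the treated mice and the other 5 vehicle mice above all 4 of them. This gave a log2 fold change of -0.43 (standard error 0.26, edgeR adjusted *p* = 0.258). Without vehicle mice 1 and 7 it was -0.63, with an edgeR adjusted *p* of 0.0356, and with the GC content and length offset -0.31, with an edgeR adjusted *p* of 0.32.

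The carnitine shuttle likewise had no called member among its 3. *Cpt1a* (chr19:3322334-3385733), the outer-membrane carnitine palmitoyltransferase at which malonyl-CoA controls entry, had a lowest vehicle level of 334 CPM, a median of 747 and a highest of 846. INT-767-treated mice had 523, 380, 677 and 234 CPM. The low vehicle values, 334 and 394, belonged to mice 1 and 7, and the other vehicle mice were all above the treated mice. The log2 fold change was -0.53 (standard error 0.32, edgeR adjusted *p* = 0.252), and it was -0.77 (edgeR adjusted *p* = 0.0413) without vehicle mice 1 and 7. With the GC content and length offset it was -0.28 (edgeR adjusted *p* = 0.393). *Slc25a20*, the carnitine-acylcarnitine carrier, had a log2 fold change of -0.21 (95% interval -0.51 to 0.08), and *Cpt2*, the inner-membrane transferase, one of 0.03 (95% interval -0.23 to 0.29).

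In the mitochondrial beta-oxidation spiral none of 8 members was called, all 8 intervals spanned 0, their bounds ran from -0.57 to 1.08, and 7 lay wholly between -1 and 1. Their summed level was 2890 ± 252 CPM (SD, n = 7) in vehicle mice and 3069 ± 488 (SD, n = 4) in treated mice. The acyl-CoA dehydrogenases for very long, long and medium chains, *Acadvl*, *Acadl* and *Acadm*, had log2 fold changes of -0.17, 0.04 and -0.18. The trifunctional protein, which carries out the later steps on long chains, had 0.01 for its alpha subunit *Hadha* and 0.14 for its beta subunit *Hadhb*. *Hadh*, the hydroxyacyl-CoA dehydrogenase for shorter chains, had 0.19, and *Acaa2*, the thiolase that closes the cycle, 0.10.

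*Acads* (chr5:115110299-115119346), the short-chain dehydrogenase, had the smallest *p* of the spiral. Its vehicle levels had a lowest value of 174 CPM, a median of 221 and a highest of 257, and INT-767-treated mice had 154, 330, 220 and 531 CPM. INT-767 mouse 1 was below all other mice and mice 2 and 4 above all of them, so that the treated group lay on both sides of the vehicle group. INT-767 over vehicle this was a log2 fold change of 0.50 (standard error 0.27, edgeR adjusted *p* = 0.21), with an exact two-sided Mann-Whitney *p* of 0.648. With single mice left out it ran from 0.090, without INT-767 mouse 4, to 0.72, without INT-767 mouse 1. *Acadvl* overlaps *Dvl2*, a gene on the opposite strand that covers 42.9% of its exon bases, and since the strand setting of the counting is not known its counts may hold reads of both. For *Hadhb*, 16.4% of its 75-base windows also occur in the processed pseudogene *Gm13910*.

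Electron transfer and the handling of double bonds had no called member among 6. The electron transfer flavoprotein subunits *Etfa* and *Etfb* had log2 fold changes of 0.55 and 0.27, and *Etfdh*, which passes the electrons to ubiquinone, had -0.01. *Etfa* reached an edgeR adjusted *p* of 0.137, of 0.0413 without vehicle mouse 1 and of 0.0184 without vehicle mice 1 and 7 at a log2 fold change of 0.79. Leaving out INT-767 mouse 2 gave 0.36 and leaving out mouse 4 gave 0.34, and the GC content and length offset gave a log2 fold change of 0.26 (edgeR adjusted *p* = 0.194). *Decr1*, the dienoyl-CoA reductase, had 0.08 and *Eci1*, the mitochondrial enoyl-CoA isomerase, -0.23. *Etfb* shares 39.6% of its windows with *Gm45233*.

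*Eci2* (chr13:34977748-35027096), an enoyl-CoA isomerase found in peroxisomes and mitochondria, had the smallest *p* of this compartment. The vehicle levels ran from 134 CPM over a median of 171 to 203, and the INT-767-treated mice had 93.4, 120, 143 and 114 CPM. Only INT-767 mouse 3 lay inside the vehicle range, above vehicle mice 1 and 7. The log2 fold change was -0.53 (standard error 0.17, edgeR adjusted *p* = 0.0605), with an exact two-sided Mann-Whitney *p* of 0.0242. It was called by DESeq2 (adjusted *p* = 0.0154) and by limma-voom with sample weights (adjusted *p* = 0.0247). By edgeR it was called without vehicle mouse 1 (adjusted *p* = 0.0287), without INT-767 mouse 3 (0.0483) and without vehicle mice 1 and 7 (log2 fold change -0.65, adjusted *p* = 0.0136). It was also called by edgeR with upper-quartile factors (0.0427) and with at least 10 counts in every mouse (0.0466). The same held with scaling by library size only (0.0234), which moved the median of all tested genes to -0.22. With each other mouse left out it was not called, with an edgeR adjusted *p* of up to 0.163, and the exact Mann-Whitney *p* was 0.0667 without INT-767 mouse 1, 2 or 4.

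Peroxisomal oxidation had log2 fold changes below 0 in its 4 members, of which *Acaa1b* fell. Their summed level was 2099 ± 184 CPM (SD, n = 7) in vehicle mice, between 1868 and 2370, and 1543 ± 390 (SD, n = 4) in treated mice, between 984 and 1815. No treated mouse reached the sum of a vehicle mouse. *Acaa1b* held the largest part of that sum, which is therefore no measure of the other 3 members, none of them called. The summed level of 27 other peroxisomal genes was 10082 ± 850 CPM (SD, n = 7) in vehicle mice and 10331 ± 1033 (SD, n = 4) in treated mice. *Ehhadh*, the bifunctional enzyme, and *Pex11a*, a factor of peroxisome division, had log2 fold changes of -0.01 and -0.02. With single mice left out these ran from -0.12 to 0.14 and from -0.37 to 0.23, on both sides of 0.

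*Acaa1b* (chr9:119148023-119157093) encodes a peroxisomal 3-ketoacyl-CoA thiolase, the enzyme of the last step of the cycle. Its level was 830 CPM in the lowest vehicle mouse, 1194 at the median and 1398 in the highest, and 421, 661, 851 and 660 CPM in the INT-767-treated mice. One pair of values crossed, INT-767 mouse 3 lying just above vehicle mouse 1, and all other treated mice were below all vehicle mice. The level fell 1.79-fold, a log2 fold change of -0.84 (standard error 0.20, edgeR adjusted *p* = 0.0258, exact two-sided Mann-Whitney *p* = 0.0121). The edgeR adjusted *p* was 0.0502 without vehicle mouse 5, 0.0531 without vehicle mouse 6 and 0.091 without INT-767 mouse 2. Over all mice left out in turn, the log2 fold change ran from -0.99 to -0.67.

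The neighbouring paralog *Acaa1a* had a log2 fold change of -0.38 (95% interval -0.78 to 0.02, edgeR adjusted *p* = 0.169), and -0.50 (edgeR adjusted *p* = 0.0408) without vehicle mice 1 and 7. With the GC content and length offset it was -0.14 (edgeR adjusted *p* = 0.561). *Acaa1b* shares 24.4% of its 75-base windows with *Acaa1a*, so that reads of these genes could be split between them by the counting. Their sum does not depend on such a split: it was 1331 ± 199 CPM (SD, n = 7) in vehicle mice and 781 ± 204 (SD, n = 4) in treated mice, lowest at 949 in vehicle mouse 1 and highest with INT-767 at 1019 in mouse 3. *Dlec1*, on the opposite strand, covers a further 11.4% of the exon bases of *Acaa1b*.

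The acyl-CoA thioesterases, which hydrolyse acyl-CoA to free fatty acid and coenzyme A, had log2 fold changes of opposite sign within 1 gene cluster. On chromosome 12 the 4 genes lie in a row on the same strand, in the order *Acot2* (mitochondrial), *Acot1* (cytosolic), *Acot4* and *Acot3* (both peroxisomal), from 83987861 to 84060402. The upstream genes *Acot2* and *Acot1* had log2 fold changes of -0.75 and -0.46, and the downstream genes *Acot4* and *Acot3* had 0.68 and 1.11. *Acot3* passed the threshold, and *Acot4* (edgeR adjusted *p* = 0.0526) and *Acot2* (0.08) did not. Without vehicle mice 1 and 7 both were called, *Acot4* at 0.65 (edgeR adjusted *p* = 0.0479) and *Acot2* at -0.86 (edgeR adjusted *p* = 0.0268). The exact two-sided Mann-Whitney *p* was 0.0242 for *Acot2* and 0.0424 for both *Acot3* and *Acot4*.

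*Acot3* (chr12:84052144-84060402) had a lowest vehicle level of 22.1 CPM, a median of 39.2 and a highest of 62.9, and INT-767-treated mice had 46.1, 108, 102 and 90.4 CPM. INT-767 mouse 1 lay within the vehicle range and the other 3 treated mice above it. The level rose 2.15-fold, a log2 fold change of 1.11 (standard error 0.31, edgeR adjusted *p* = 0.0427). The call was lost when single mice were left out, with edgeR adjusted *p* of 0.0704, 0.0827, 0.089 and 0.0695 without vehicle mice 3, 4, 5 and 6, and of 0.165, 0.0722 and 0.0865 without INT-767 mice 2, 3 and 4. It was also lost with scaling by library size only (0.0815), although the direction was the same in every fit.

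*Acot4* likewise had 1 treated mouse within the vehicle range and 3 above it, with a vehicle median of 38.9 CPM, a highest vehicle level of 57.4, and 39.8, 78.9, 65.3 and 79.5 CPM in the treated mice. With the GC content and length offset it was called (log2 fold change 1.01, edgeR adjusted *p* = 0.0226), and the offset left *Acot3* at 1.27 (edgeR adjusted *p* = 0.0214). *Acot4* was also called by DESeq2 (adjusted *p* = 0.0175) and by limma-voom with sample weights (adjusted *p* = 0.0438). By edgeR it was called without vehicle mouse 1 (adjusted *p* = 0.0447), vehicle mouse 2 (0.0363) or INT-767 mouse 1 (0.0164). With each other mouse left out it was not called, with an edgeR adjusted *p* of up to 0.198. *Acot2* had a vehicle median of 30.1 CPM and treated levels of 17.4, 8.98, 28.2 and 16.7 CPM, with INT-767 mouse 3 inside the vehicle range. It was called by DESeq2 (adjusted *p* = 0.0331) and by limma-voom with sample weights (adjusted *p* = 0.0416). By edgeR it was called without vehicle mouse 1 (adjusted *p* = 0.0366) or INT-767 mouse 3 (0.0257). With each other mouse left out it was not called, with an edgeR adjusted *p* of up to 0.228. Summed, *Acot1* and *Acot2* had 42.1 ± 7.22 CPM (SD, n = 7) in vehicle mice and 26.8 ± 12.3 (SD, n = 4) in treated mice, and *Acot3* and *Acot4* had 81.3 ± 23.2 and 153 ± 45.4. *Acot2* shares 20.5% of its windows with *Acot1*, and *Acot3* and *Acot4* share 2.05% and 1.08% with each other, so that reads could be split within the former pair more than within the latter. *Acot3* also shares 10.3% of its windows with *Gm49366*, 4.45% with *Acot5* and 3.73% with *Acot1*, and 18.1% with any other gene, so that its counts may hold reads of these genes or lack reads of its own. An antisense gene, *4732463B04Rik*, covers 9.08% of the exon bases of *Acot3* and 9.21% of those of *Acot4*.

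Since the fold changes in the cluster differed in sign, the promoters of its genes were searched for AGGTCA on both strands, the half-site that nuclear receptors of the PPARA and FXR kind bind in pairs. The window was 250 bases before to 50 after the start site in RefSeq's GRCm38.p6 annotation. The choice of motif was made after the fold changes were seen. *Acot4* and *Acot3* each held 1 match on the minus strand, and *Acot1* and *Acot2* held none. Over the 28 members with a promoter sequence, 7 held a match (25.0%), against 16.3% of all 32851 promoters. The members are counted as genes, some of them with several promoters, and the 32851 as single promoters, so that these shares differ in unit. The other members with a match were *Cd36* and *Fabp1*, with log2 fold changes above 0, and *Cpt1a*, *Acadvl* and *Acadm*, with log2 fold changes below 0, none of them called. A longer motif, 2 copies of AGGNCA in a row with 1 base between them, was searched on both strands. It was found in 1 member, *Fabp1*, in 0.381% of all promoters and in 0.451% of the 27025 genes with a promoter. A match is a run of letters in this window and no evidence of binding. The sequences of the genes with a match in the cluster and of *Fabp1* are shown 5′ to 3′ on the strand of the gene, with the match in capitals, which reads as its reverse complement because it lies on the other strand. *Acot4* lies at chr12:84038129-84038428, *Acot3* at chr12:84051894-84052193 and *Fabp1* at chr6:71199629-71199928.
Acot4: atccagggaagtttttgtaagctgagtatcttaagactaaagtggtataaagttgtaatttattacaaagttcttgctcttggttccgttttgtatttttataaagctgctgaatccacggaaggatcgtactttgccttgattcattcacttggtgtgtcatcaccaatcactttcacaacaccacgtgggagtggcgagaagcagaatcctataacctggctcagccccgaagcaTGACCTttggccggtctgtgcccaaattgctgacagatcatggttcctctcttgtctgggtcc
Acot3: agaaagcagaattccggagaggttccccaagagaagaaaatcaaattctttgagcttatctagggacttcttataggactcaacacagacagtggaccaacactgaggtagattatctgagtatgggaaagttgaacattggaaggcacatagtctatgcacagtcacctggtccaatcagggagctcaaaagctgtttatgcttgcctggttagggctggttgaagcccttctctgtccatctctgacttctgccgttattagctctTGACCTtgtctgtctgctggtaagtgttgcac
Fabp1: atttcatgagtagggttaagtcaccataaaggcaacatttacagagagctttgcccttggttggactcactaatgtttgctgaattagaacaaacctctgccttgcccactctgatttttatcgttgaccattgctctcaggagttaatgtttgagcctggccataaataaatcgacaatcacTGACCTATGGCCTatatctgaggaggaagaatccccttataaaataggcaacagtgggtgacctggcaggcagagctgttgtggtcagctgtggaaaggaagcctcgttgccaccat

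On the printed strand, the match begins 13 bases before the start site in *Acot4* and at base 19 of the transcript in *Acot3*. The paired match of *Fabp1* begins 67 bases before the start site, and a further single half-site, left in lower case, begins 9 bases before it. *Fabp1*, described above, was not called.

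Omega-oxidation, the attack on the methyl end of the chain by CYP4A enzymes, held the lowest log2 fold changes. Of its 4 members *Cyp4a31* and *Cyp4a12a* were called lower, both with the limits of shared sequence given below. *Cyp4a10* and *Cyp4a14*, which are far more abundant, were not called. Per length, vehicle livers had 216 ± 87.3 CPM per kb of *Cyp4a14* and 103 ± 40.9 of *Cyp4a10*, against 4.73 ± 0.478 of *Cyp4a31* and 2.70 ± 1.09 of *Cyp4a12a* (SD, n = 7 each), the lowest of all 35 members. The summed level of the compartment was therefore set by the uncalled genes, at 775 ± 301 CPM (SD, n = 7) in vehicle mice and 717 ± 100 (SD, n = 4) in treated mice.

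*Cyp4a31* (chr4:115563649-115579015) gave the clearest difference of the set. Vehicle mice had between 10.4 and 13.7 CPM with a median of 11.4, and INT-767-treated mice had 2.99, 1.66, 3.52 and 3.52 CPM. The groups were far apart, and vehicle mice 1 and 7 lay with the other vehicle mice. The level fell 4.02-fold, a log2 fold change of -2.01 (standard error 0.21, edgeR adjusted *p* = 0.000459), and the exact two-sided Mann-Whitney *p* of 0.00606 is the smallest that 4 against 7 mice allow. With each mouse left out in turn the edgeR adjusted *p* stayed between 0.000763 and 0.00267, and the log2 fold change between -2.12 and -1.85. These levels rest on 83 to 192 counts in each vehicle mouse and 12 to 47 in each treated mouse.

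The close paralogs of *Cyp4a31* were not called. *Cyp4a32*, with which it shares 9.02% of its windows, had 20.3 ± 5.12 CPM (SD, n = 7) in vehicle mice and 15.5 ± 10.9 (SD, n = 4) in treated mice, a log2 fold change of -0.40 (edgeR adjusted *p* = 0.414). *Cyp4a10*, with which it shares 6.98%, had a log2 fold change of 0.52 (95% interval -0.10 to 1.14, edgeR adjusted *p* = 0.21). *Cyp4a31* and *Cyp4a32* together had 32.2 ± 5.40 CPM (SD, n = 7) in vehicle mice and 18.4 ± 11.3 (SD, n = 4) in treated mice, where mouse 3 stood at 35.2 and the other treated mice between 11.1 and 13.8. *Cyp4a14* had a log2 fold change of -0.43 (95% interval -1.03 to 0.17, edgeR adjusted *p* = 0.284).

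*Cyp4a12a* (chr4:115299046-115332815), an enzyme known to be more abundant in male than in female mouse liver, had vehicle levels from 2.25 over a median of 6.54 to 9.98 CPM. INT-767-treated mice had 0.635, 2.90, 0.422 and 0.150 CPM, which are 10, 21, 3 and 2 counts. Only INT-767 mouse 2 and vehicle mouse 5 crossed. The log2 fold change was -2.79 (standard error 0.63, edgeR adjusted *p* = 0.0204, exact two-sided Mann-Whitney *p* = 0.0121), and INT-767 mice 3 and 4 lie at or under the 3 counts that a count of 0 would also allow. Without INT-767 mouse 2 the log2 fold change was -3.97, and it ran from -3.97 to -2.39 over all mice left out in turn. Shared sequence adds to the uncertainty of the size and the direction of this change. *Cyp4a12a* shares 40.8% of its windows with *Cyp4a12b*, which had 4.57, 12.4, 0.422 and 0 CPM in the treated mice and between 0.507 and 1.70 with vehicle (log2 fold change 2.21, edgeR adjusted *p* = 0.103). Summed, the pair had 7.44 ± 2.82 CPM (SD, n = 7) in vehicle mice and 5.21, 15.3, 0.845 and 0.150 CPM in the treated mice, so that in the sum INT-767 mice 3 and 4 lay below all vehicle mice, mouse 1 within their range and mouse 2 above it.

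**Figure D3:**
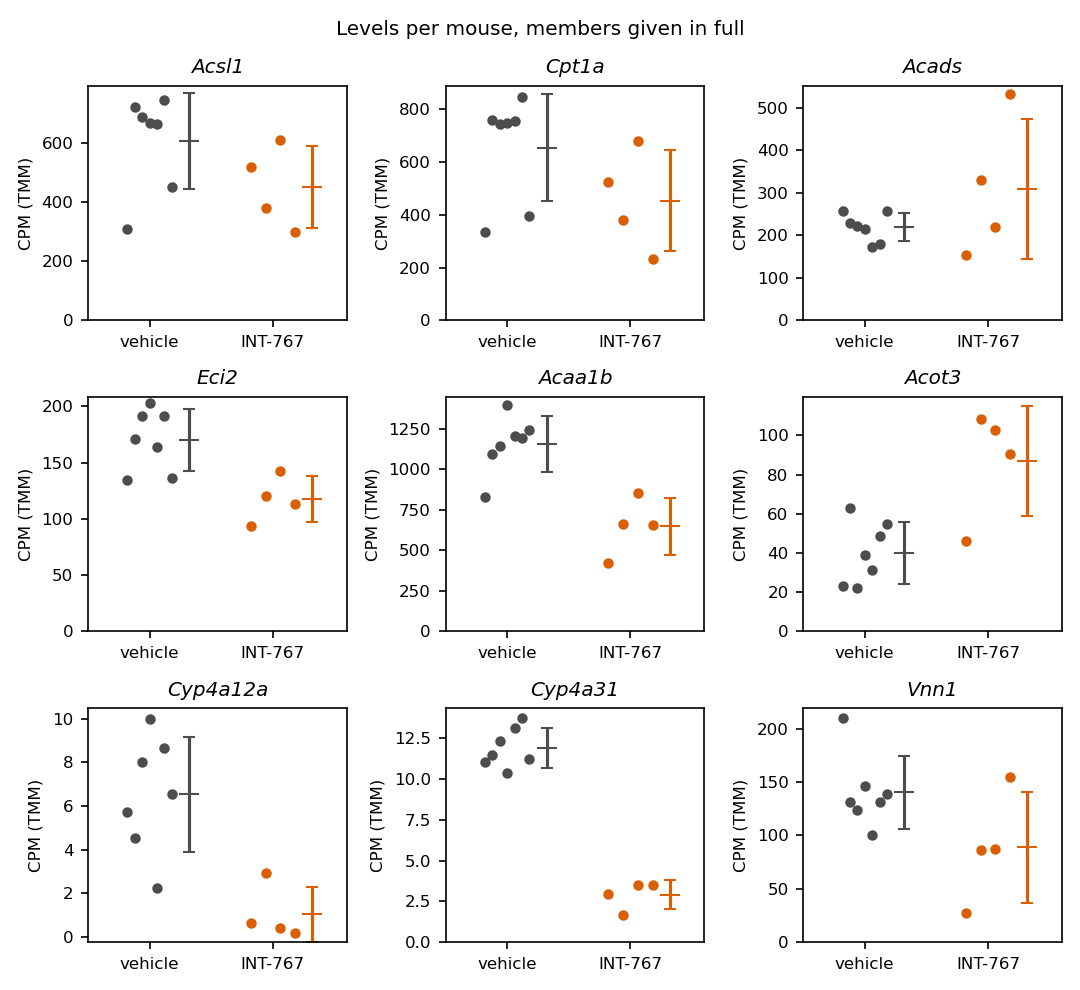
CPM of the 9 members given in full, 1 point per mouse, with the mean and SD beside them, for vehicle (grey, n = 7) and INT-767 (orange, n = 4) on linear axes; the SD bar of *Cyp4a12a* reaches below 0. *Cyp4a31* is the only panel in which the groups do not overlap, and vehicle mice 1 and 7 are the low grey points of *Acsl1* and *Cpt1a*.

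The 3 remaining members were not called. *Bdh1*, which interconverts the ketone bodies, had a log2 fold change of 0.43 (95% interval -0.21 to 1.07), from 314 ± 46.3 CPM (SD, n = 7) to 424 ± 244 (SD, n = 4), and 0.00 without INT-767 mouse 4, where it stood at 746 CPM. *Pdk4*, the kinase that shuts pyruvate dehydrogenase when fat is burned, had 0.06 (95% interval -0.72 to 0.85). *Vnn1* (chr10:23894688-23905343), a pantetheinase that is a sensitive PPARA target in liver, had vehicle levels from 100 over a median of 131 to 210 CPM and 27.5, 86.5, 87.7 and 155 CPM with INT-767. The first 3 treated mice lay below all vehicle mice and the fourth above 6 of the 7. The log2 fold change was -0.65 (standard error 0.35, edgeR adjusted *p* = 0.202), and the exact two-sided Mann-Whitney *p* was 0.164, or 0.0167 without INT-767 mouse 4. Of the alternative fits, only limma-voom with sample weights called it (log2 fold change -0.87, adjusted *p* = 0.0418). With single mice left out the log2 fold change ran from -1.07, without INT-767 mouse 4, to -0.35, without INT-767 mouse 1.

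The pathway around the members was read from a list of 115 other genes, of which 108 passed the filter on low counts. By edgeR 13 of the 108 were higher and 4 lower, where 5.04% and 4.68% of all tested genes were, and their median log2 fold change was 0.0051. With single mice left out, between 6 and 23 were higher and between 1 and 12 lower, the fewest higher without INT-767 mouse 2 and the most without vehicle mouse 1. *Ppara* itself, the receptor, had 174 ± 68.6 CPM (SD, n = 7) in vehicle mice and 128, 66.1, 220 and 40.9 CPM in the treated mice, which is -0.61 as a log2 fold change (edgeR adjusted *p* = 0.345). Its low vehicle levels, 62.8 and 92.3 CPM, were again those of mice 1 and 7.

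Among regulators *Nr0b2*, the FXR target that encodes SHP, rose by 1.54 on the log2 scale, *Ppargc1a*, the coactivator of oxidative metabolism, by 0.93, and *Sirt3*, the mitochondrial deacetylase, by 1.21, which were the called genes among 17. Of the genes listed under other mitochondrial oxidation 3 of 15 rose: *Echs1*, the short-chain enoyl-CoA hydratase (0.93), and the thioesterases *Acot13* (0.99) and *Acot7* (0.78). The list does not establish that each product lies in the mitochondrion. Of the other peroxisomal genes 3 of 26 rose: *Hacl1*, the lyase of alpha-oxidation (1.75), *Pecr*, an enoyl-CoA reductase (1.07), and *Nudt19*, a coenzyme A diphosphatase (0.88). None of 5 ketogenesis genes and none of 9 other omega-oxidation genes was called.

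In uptake and activation the called genes split evenly. *Slc27a5*, the bile acyl-CoA synthetase (0.92), and *Acss2*, the cytosolic acetyl-CoA synthetase (1.39), rose, and *Slc27a1*, a fatty acid transporter (-1.06), and *Acss1*, the mitochondrial acetyl-CoA synthetase (-1.27), fell. Among 19 other PPARA targets *Plin5* (1.59) and *Slc25a47* (1.00) rose, which encode a lipid droplet protein and a mitochondrial carrier of liver, and *Cidec* (-1.41) and *Ucp2* (-1.11) fell, a lipid droplet fusion protein and an uncoupling protein.

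Marker lists of other gene groups were read in the same livers. Of 10 markers of periportal hepatocytes, where fatty acid oxidation is known to be highest, 6 rose and 0 fell, and their summed level went from 6672 ± 780 CPM (SD, n = 7) to 12304 ± 1517 (SD, n = 4), with *Cps1* the most abundant. Of 9 tested pericentral markers none was called, with a median log2 fold change of -0.23 and a sum of 5708 ± 1865 CPM (SD, n = 7) in vehicle mice and 3572 ± 1591 (SD, n = 4) in treated mice. Of 12 genes of mitochondrial content 1 rose (*Vdac1*, 0.51), with a summed level of 2378 ± 165 and 2820 ± 195 CPM, with *Hspa9* the most abundant. At an unadjusted edgeR *p* under 0.05, 6 of the 12 were higher and 0 lower, against 17.4% and 15.6% of tested genes. The sum lay between 2082 and 2506 CPM in vehicle mice and between 2574 and 2977 in treated mice. The part of mitochondrial content in any member's level was not tested. Of 4 tested clock genes that are high at the end of the dark phase, *Arntl* (2.30) and *Cry1* (1.84) rose, with *Clock* at 0.82 and *Nfil3* at -0.0019. Of 10 that are high at the end of the light phase, *Nr1d1* (-2.28), *Bhlhe41* (-1.68) and *Dbp* (-1.43) fell, and the other 7 were not called and lay between -1.56 (*Ciart*) and 0.29 (*Tef*). The time of day at which each liver was taken is not given in the sources used here, and the part of the clock in any member's level was not tested.

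Some markers of non-parenchymal cells fell. Among macrophage markers 4 of 12 fell, with a sum of 1205 ± 164 CPM (SD, n = 7) and 826 ± 347 (SD, n = 4), with *Lyz2* the most abundant gene, and of the stellate cell and myofibroblast markers 3 of 12 fell, with a sum of 1373 ± 393 and 968 ± 326 CPM. The most abundant gene of this list, *Dcn*, had a log2 fold change of 0.22 and was not called. The endothelial, cholangiocyte and adipocyte lists had 1 lower gene each of 8, 8 and 3 tested, with sums of 252 ± 80.7 and 172 ± 44.5, 1072 ± 467 and 781 ± 431, and 14.6 ± 4.42 and 10.2 ± 4.25 CPM, and *Eng*, *Spp1* and *Lipe* as their most abundant genes. At an unadjusted edgeR *p* under 0.05, lower markers were 8 of 12 for macrophages and 5 of 12 for stellate cells and myofibroblasts. They were 4 of 8 for endothelium and 6 of 8 for cholangiocytes. In each of these 4 lists 0 were higher, where 15.6% of tested genes were lower and 17.4% higher. Of the adipocyte markers too low to test, *Adipoq* had 45 counts and *Plin1* 18 in INT-767 mouse 4, against 0 or 1 in every other mouse, and *Retn* was at 0 throughout. *Cd36*, which adipocytes also express, was highest in that mouse, at 922 CPM, and the part of adipose RNA in its level was not tested. The lymphocyte list had none of 6, and a single skeletal muscle marker was tested and not called, with *Ckm* and *Myh4* at 0 in every mouse. Hepatocyte markers marked the tissue as liver in every mouse, with *Alb* the most abundant, and 1 of 11 was called (*Rbp4*, 0.69). Their summed level was 73889 ± 7795 CPM (SD, n = 7) in vehicle mice and 106820 ± 17243 (SD, n = 4) in treated mice, the lowest treated mouse (86433) lying below the highest vehicle mouse (88397), and 4 of the 11 were higher and 0 lower at an unadjusted *p* under 0.05. In bulk liver, fewer cells of a type and less RNA per cell cannot be told apart, and the part of cell makeup in the members' levels was not tested.

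**Figure D4:**
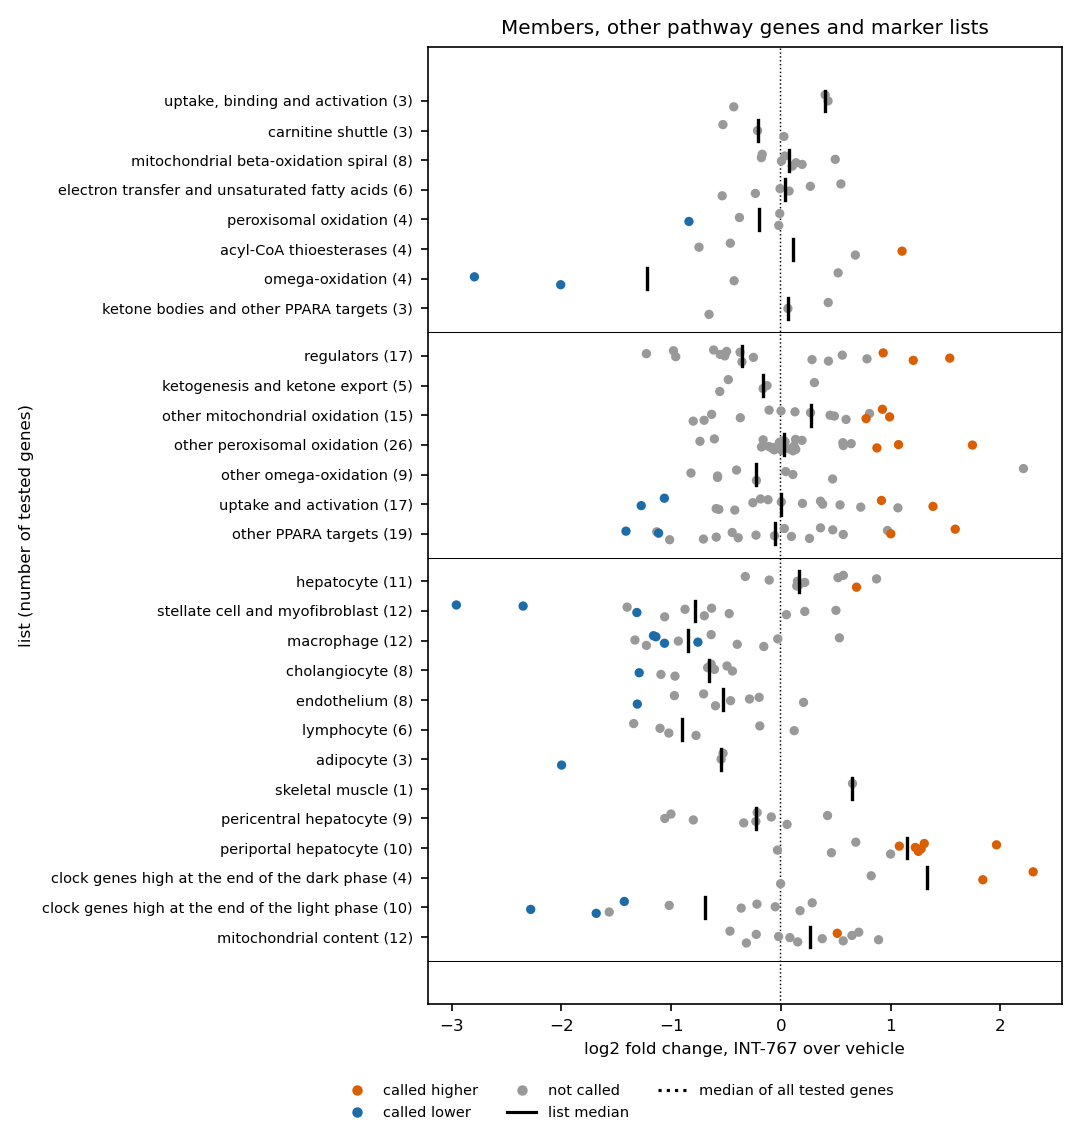
Log2 fold change, INT-767 over vehicle, of each tested gene in the 8 member compartments (top), 7 lists of other pathway genes (middle) and the marker lists (bottom), 1 point per gene, coloured by its edgeR call, with the list median as a bar. Periportal markers are shifted to the right and macrophage markers to the left, and the medians of the member compartments lie between -1.22 (omega-oxidation) and 0.40 (uptake, binding and activation) around the dotted median of all tested genes (-0.0106).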

How the data were processed

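Liver RNA of 11 mice was analysed from 1 table of raw read counts per gene that the authors deposited, 46603 genes by Ensembl identifier, with no normalization. The authors made stranded mRNA libraries, sequenced 75 cycles on a NextSeq instrument and aligned reads with STAR (2.4.0 in the submitters' processing notes, another version in the methods) to GRCm38 with Ensembl release 84. How reads were counted and whether by strand, and any batch, is not given in the sources used. Groups are those of the sample labels. Members and gene lists were chosen with earlier results of these data known.

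Counts were scaled by TMM in edgeR 4.0.16 (R 4.3.3) and filtered by filterByExpr (minimum count 10, minimum total count 15), and 13880 genes were tested by robust quasi-likelihood F tests on treatment alone and Benjamini-Hochberg adjustment (threshold 0.05). For single genes an exact two-sided Mann-Whitney test was run over all 330 assignments. Members called, and the member with the smallest p in each compartment, were given in full, and every other member was accounted for. Of the other pathway genes, *Ppara* and up to 5 called genes per list were named, some genes chosen by this rule are not reported here, and clock and marker genes and paralogs beyond that rule were chosen after their values were seen. No library was a copy of another. Floors for a count of 0 are 3 counts, for counting error only. The mice were housed singly once the biopsy was taken. Since no source says that they come from separate litters, p-values measure the spread between these mice.

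Coordinates, transcript length, overlap and shared 75-base windows come from GENCODE M21, and promoters from RefSeq (GRCm38.p6), which matched 28 members. Alternatives were RLE, library size only and upper-quartile scaling, other count filters, limma-voom (limma 3.58.1) with and without sample weights, DESeq2 1.42.0, a threshold of 0.01, a replicate block and leaving out each mouse. An offset for GC content and length (lowess, span 0.3) and leaving out vehicle mice 1 and 7 were added after seeing the data. The fits were also run on simulated data, and the outcome is not reported here. Figures were drawn with matplotlib 3.10.9.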

Additional observations from a re-analysis of the deposited data

Results flagged for a closer look

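In 2 of 70 groups of levels (35 members in 2 groups of mice), a single mouse lay far from the others by Dixon's test at the 95% level, where chance alone would give about 3.5 at 1 in 20. *Pdk4* stood at 63.94 CPM in vehicle mouse 3, with the next vehicle mouse at 33.73 CPM. *Vnn1* stood at 210.1 CPM in vehicle mouse 1, with the next vehicle mouse at 146.2 CPM. Neither gene was called by edgeR.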

How the results depend on the processing

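Of the 35 members, 22 kept their direction under each of up to 23 alternatives in which they were tested, and 10 of these also kept their side of the threshold. *Cyp4a31* was called under each except the replicate block. *Cyp4a12a* was not tested with at least 10 counts in every mouse, and was called under the others except the block and the threshold of 0.01. The number of members called higher was 0 at a threshold of 0.01, with library size only, upper-quartile factors, no filter, at least 10 counts in every mouse and the block, 2 by DESeq2 and with the GC content and length offset, and 3 by limma-voom with sample weights and without vehicle mice 1 and 7. The number called lower was 1 at a threshold of 0.01, 6 by limma-voom with sample weights, 5 by DESeq2 and 8 without vehicle mice 1 and 7. With each mouse left out, 0 to 3 were higher and 2 to 5 lower.

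Of the other pathway genes, 6 were higher and 1 lower at 0.01, 21 and 13 by DESeq2, and 26 and 17 without vehicle mice 1 and 7, and the number lower was 12 with library size only, 8 with upper-quartile factors, 7 by limma-voom, 16 with sample weights and 10 with the offset. With each mouse left out, 6 to 23 were higher and 1 to 12 lower. Of all genes, 158 were higher and 87 lower at 0.01, 331 and 1026 with library size only, 1658 and 1221 by limma-voom with sample weights, 1443 and 1368 by DESeq2, 2701 and 2160 without vehicle mice 1 and 7, and 1073 higher with the offset, and 164 to 1906 higher and 110 to 1370 lower with each mouse left out. The cause of these shifts was not tested.

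The replicate block gave 0 calls in members, other pathway genes and all genes in either direction by edgeR, with 1347 genes at an unadjusted p under 0.05. The mice share only a number. Across genes, the deviations of same-numbered mice from their own group means correlated at -0.69, 0.215, 0.148 and -0.482. A call lost under the block is therefore not read as a weaker effect.

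The sign changed in 13 members, most of them near 0 but *Cd36* and *Fabp1* at 0.40 and 0.43 among them, with log2 fold changes as follows. With library size only, *Cpt2* was -0.18, *Acadl* -0.17, *Hadha* -0.21, *Hadhb* -0.089, *Hadh* -0.026, *Acaa2* -0.11, *Decr1* -0.14 and *Pdk4* -0.14. With upper-quartile factors, *Cpt2* was -0.051, *Acadl* -0.040, *Hadha* -0.074, *Decr1* -0.0061 and *Pdk4* -0.00032. With at least 10 counts in every mouse, *Cpt2* was -0.043, *Acadl* -0.034, *Hadha* -0.066 and *Pdk4* -0.0047. Under the replicate block, *Cpt2* was -0.046, *Acadl* -0.043, *Hadha* -0.086, *Hadhb* -0.034, *Decr1* -0.042 and *Pdk4* -0.22. By limma-voom *Ehhadh* was 0.0041. With sample weights in limma-voom, *Hadha* was -0.021, *Etfdh* 0.014 and *Ehhadh* 0.13. Without vehicle mice 1 and 7, *Acadl* was -0.0071, *Etfdh* 0.088, *Ehhadh* 0.18 and *Pdk4* -0.023. With the offset, *Cd36* was -0.052, *Fabp1* -0.021, *Acadl* -0.18, *Hadhb* -0.21, *Decr1* -0.031 and *Ehhadh* 0.036.

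With each mouse left out, the ranges were -0.061 to 0.67 for *Fabp1*, -0.012 to 0.090 for *Cpt2*, -0.011 to 0.13 for *Acadl*, -0.079 to 0.096 for *Hadha*, -0.14 to 0.35 for *Hadhb*, -0.14 to 0.13 for *Etfdh*, -0.0073 to 0.17 for *Decr1*, -0.12 to 0.14 for *Ehhadh*, -0.37 to 0.23 for *Pex11a* and -0.14 to 0.34 for *Pdk4*. The exact Mann-Whitney p of *Acads* was 0.183 to 1. Depth limits *Cyp4a12a* most, with 2 and 3 counts in INT-767 mice 4 and 3.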
